A study of Mus musculus with 30 samples.

Results

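The genes described here make cholesterol and fatty acids, or control the genes that do. They were 35 named genes, taken by symbol from the deposited tables: 7 of the mevalonate pathway, 11 of the steps from squalene to cholesterol, 5 regulators and carriers of sterol, 5 that supply acetyl-CoA and NADPH or build the fatty acid chain, and 7 desaturases and elongases. Transcripts were matched by gene name. At least 1 table listed 34 of the 35 genes, with 46 transcripts, out of 14741 genes and 20423 transcripts in all. Of those 46 transcripts, 37 were annotated as protein-coding and 6 as retained-intron forms, with 3 of other classes. Dhcr7, which makes the last step to cholesterol, was in none of them.

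Cholesterol is built from acetyl-CoA through mevalonate, farnesyl diphosphate and squalene, and the same acetyl-CoA is joined into palmitate by fatty acid synthase and then lengthened and desaturated. Transcription of both routes is driven by the sterol regulatory element binding proteins (SREBPs), which SCAP carries out of the endoplasmic reticulum when sterol is low and INSIG proteins hold back when it is high. In the nerve, myelinating Schwann cells make the cholesterol of their own myelin, and the fat cells of the epineurium make fatty acids.

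The samples were extracts of mouse sciatic nerve that the labels call axoplasm, taken 7 days after a crush (injured) or from uninjured animals (naive), with 10 nerves pooled per sample and 3 independent biological repeats. By the protocol the whole nerve was ground and the pellet discarded, so the extract was not limited to axons. Extracts were sequenced after immunoprecipitation (IP) of nucleolin or PTBP1, which are RNA-binding proteins, after the same IP with the antibody first incubated with its blocking peptide (blocked IP), and as input. This gave 10 groups of 3 libraries, 30 in all: injured and naive nucleolin IP, injured and naive nucleolin blocked IP, injured and naive PTBP1 IP, injured and naive PTBP1 blocked IP, and injured and naive input. The sources used here do not give strain, sex or age.

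Libraries held 7536033 to 22919174 counts over the transcripts listed, with the fewest in injured input 1. A single transcript, Yam1, took 38.15%, 19.55% and 5.374% of the counts of injured inputs 1, 2 and 3. Levels are given as CPM, counts relative to a library size that was adjusted by edgeR's TMM scaling within the table of an antibody or of the inputs, so a level in one table is not on the same scale as a level in another. Naive blocked IP library 3 carries another treatment name in the nucleolin and PTBP1 tables and was used as its condition, antibody and number place it. Set against the label axoplasm, 7 measured neuron and axon markers summed to 108.5 to 165.9 CPM in injured input, against 143.9 to 202.3 CPM in naive input. The 13 measured markers of myelinating Schwann cells summed to 4762 to 7539 CPM in injured input, against 29330 to 52870 CPM in naive input.

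In input, transcripts for sterol and fatty acid synthesis were lower 7 days after crush. Of 34 member transcripts tested (30 genes), 22 fell and 0 rose, where passing means a Benjamini-Hochberg adjusted p below 0.05 in the quasi-likelihood test of edgeR. Over all 14095 transcripts tested, 13.4% fell and 14.5% rose. The fitted log2 fold change was below 0 for all 34 member transcripts, against 7036 of the 14095. Their median log2 fold change was -1.84, and that of all transcripts tested was 0.0017. The 36 listed member transcripts summed to 3349, 3357 and 3990 CPM in the 3 injured inputs, against 10210, 12000 and 16010 CPM in the 3 naive inputs. These sums did not overlap, and the highest injured sum was under the lowest naive one. In bulk extracts, fewer cells of a type and less RNA per cell cannot be told apart.

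**Figure D1:**
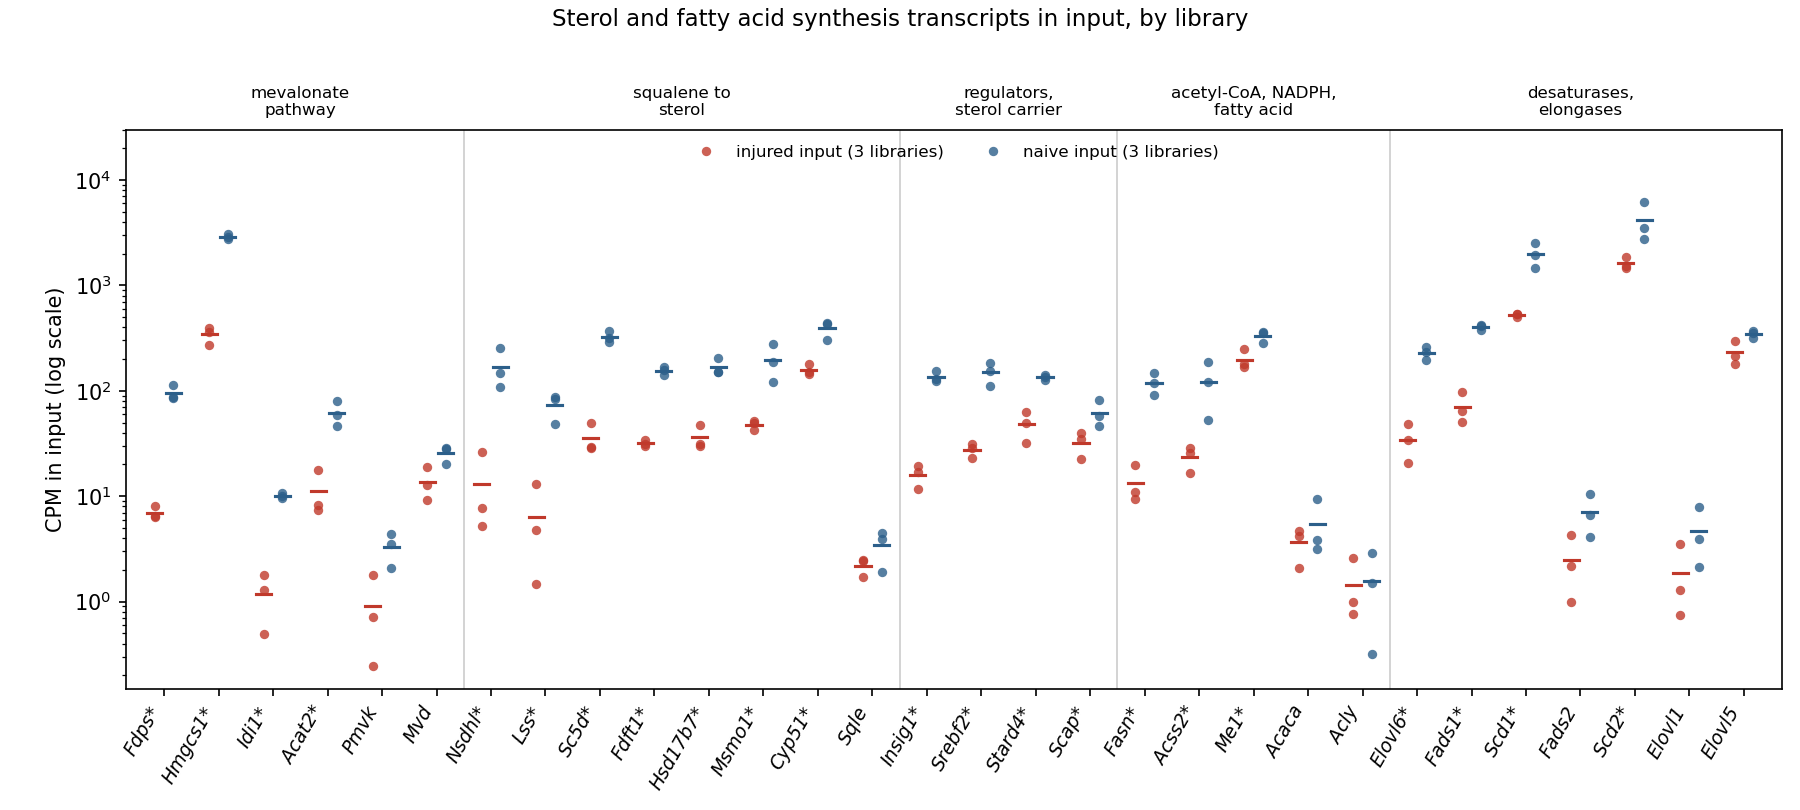
CPM in input on a log scale for the 30 tested genes (points: libraries, bars: means of 3), injured left of naive, in 5 groups by role; an asterisk marks an adjusted p under 0.05. The red points of Fdps, Hmgcs1 and Idi1 lie far below the blue ones, while those of Acly and Acaca overlap them.

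All 6 tested transcripts of the mevalonate pathway had log2 fold changes below 0, and 4 of them passed the test. Fdps (chr3:89093588-89101959, 10 exons; transcript coordinates here and below are GRCm38, GENCODE) encodes farnesyl diphosphate synthase, the branch point between sterols and protein prenylation. It had 6.43, 6.38 and 8.02 CPM in injured input, against 86.4, 112.5 and 86.0 CPM in naive input. The injured libraries lay close together and far under the naive ones, a fall by 3.76 on the log2 scale (SE 0.28, adjusted p 4.61e-06), or 13.6-fold. For 945 bases (76.4%) of its length, the Fdps transcript overlaps the exons of Gm43738 on the same strand, so its reads may be shared with that gene.

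Hmgcs1 (chr13:119690446-119708082, 10 exons), the synthase that makes HMG-CoA, was the most abundant member per length in naive input, at 886.5 CPM per kilobase. It had 362, 274 and 396 CPM in injured input, against 2851, 2722 and 3057 CPM in naive input. The naive libraries differed little among themselves, and every injured library was several times lower (log2 fold change -3.06, SE 0.24, adjusted p 5.97e-06). Idi1, the isomerase of isopentenyl diphosphate, fell by 2.99 on the log2 scale and was low throughout, at 1.19 ± 0.647 CPM after injury, against 10.1 ± 0.616 CPM in naive nerve (SD, n = 3 each). Acat2, an acetoacetyl-CoA thiolase with a close paralog that may share its reads, fell by 2.51. Pmvk, phosphomevalonate kinase, and Mvd, the decarboxylase after it, had log2 fold changes of -1.76 and -0.93 and missed the threshold (adjusted p 0.0909 and 0.0768). Mvk, mevalonate kinase, was listed in input by 1 transcript with at most 0.819 CPM in any library and was too low to test.

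From squalene to cholesterol, 7 of 9 tested transcripts fell. Nsdhl (chrX:72918557-72958514, 8 exons), a dehydrogenase that helps remove the methyl groups of lanosterol, had 5.19, 7.67 and 26.0 CPM in injured input, against 109, 146 and 254 CPM in naive input. Library 3 was the highest of its group in both, and the groups stayed apart (log2 fold change -3.66, SE 0.53, adjusted p 0.000387). Lss, which closes squalene epoxide into lanosterol, was measured in input only through a retained-intron transcript of 22 exons (chr10:76531612-76557138). That transcript had 1.48, 4.76 and 12.98 CPM in injured input, against 48.8, 83.2 and 86.9 CPM in naive input (log2 fold change -3.42, SE 0.55, adjusted p 0.000754).

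Sc5d (chr9:42251595-42264256), the sterol desaturase near the end of the route, had 29.2, 28.8 and 49.1 CPM in injured input, against 315.6, 292.8 and 371 CPM in naive input (log2 fold change -3.19, SE 0.28, adjusted p 1.03e-05). Hsd17b7 (chr1:169949535-169969241), the sterol ketoreductase, had 29.9, 31.3 and 47.7 CPM in injured input, against 152.3, 149.1 and 203.7 CPM in naive input (log2 fold change -2.21, SE 0.27, adjusted p 0.000109). Neither gene's groups overlapped. Fdft1, squalene synthase, fell by 2.29 on the log2 scale, Msmo1, the methylsterol oxidase, by 2.05, and Cyp51, the lanosterol demethylase, by 1.30. Over 771 bases, 27.0% of its length, the Fdft1 transcript overlaps exons of Ctsb on the opposite strand, and the sources used here do not say whether strand was used in counting.

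The sterol steps held 2 transcripts that did not pass. A retained-intron form of Msmo1 had a log2 fold change of -0.85, and a retained-intron form of Sqle, squalene epoxidase, had -0.64 (adjusted p 0.321 and 0.462). Sqle had 1.70 to 2.47 CPM in injured input, against 1.89 to 4.43 CPM in naive input, and these ranges overlapped. Ebp and Tm7sf2, a sterol isomerase and a sterol reductase, were not in the input table.

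Every tested regulator or carrier fell, 4 of 4. Insig1 (chr5:28071363-28078662), which holds the SREBP complex in the endoplasmic reticulum and is itself an SREBP target, had 17.1, 11.6 and 19.4 CPM in injured input, against 125, 155 and 129 CPM in naive input. The lowest naive library was several times above the highest injured one (log2 fold change -3.09, SE 0.28, adjusted p 1.36e-05). Srebf2 (chr15:82147181-82205379), the SREBP that mainly drives sterol genes, had 28.7, 31.2 and 23.1 CPM in injured input, against 109.9, 153.1 and 184.5 CPM in naive input (log2 fold change -2.43, SE 0.27, adjusted p 5.56e-05). Stard4, a carrier of free cholesterol, fell by 1.47. Scap, the escort of SREBP, fell by 0.92 (adjusted p 0.0403), which was lost when library totals replaced the TMM scaling (adjusted p 0.121) and when any library other than naive input 1 was left out (0.0517 to 0.154). Srebf1, the SREBP that mainly drives fatty acid genes, had at most 0.522 CPM in any input and was not tested.

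Among the genes for acetyl-CoA, NADPH and the fatty acid chain, 3 of 8 tested transcripts fell. Fasn (chr11:120805846-120824547, 43 exons), fatty acid synthase, had 10.9, 9.36 and 19.9 CPM in injured input, against 91.2, 119 and 149 CPM in naive input. All naive libraries stood several times above all injured ones (log2 fold change -3.14, SE 0.34, adjusted p 4.63e-05). Acss2 (chr2:155517948-155562746), which makes acetyl-CoA from acetate, had 16.6, 28.9 and 25.4 CPM in injured input, against 52.8, 122 and 186 CPM in naive input. The naive libraries spread widely but did not overlap the injured ones (log2 fold change -2.34, SE 0.41, adjusted p 0.00118).

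Me1, malic enzyme and a source of NADPH, changed least among the members that passed, with a log2 fold change of -0.75 (adjusted p 0.0276). That call was lost under library totals (adjusted p 0.0973) and without injured input 2 or 3 or naive input 2 or 3 (0.0623 to 0.111). Acly, which makes acetyl-CoA from citrate, and Acaca, acetyl-CoA carboxylase, were listed at low levels. The Acly transcript had 0.767 to 2.58 CPM in injured input, against 0.321 to 2.87 CPM in naive input, and its log2 fold change was -0.10 with an SE of 0.83. A second, less abundant Acss2 transcript, a retained-intron form, had a log2 fold change of -1.09 and did not pass (adjusted p 0.277). The 3 Acaca transcripts had log2 fold changes of -0.59, -0.76 and -1.07, and none passed.

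Of the 7 desaturases and elongases, 4 fell. Elovl6 (chr3:129532386-129638495), which lengthens palmitate, had 20.5, 34.4 and 48.3 CPM in injured input, against 195, 259 and 231 CPM in naive input (log2 fold change -2.72, SE 0.31, adjusted p 6.2e-05). Fads1 (chr19:10182888-10196874), a desaturase of polyunsaturated fatty acids, had 50.2, 64.6 and 97.2 CPM in injured input, against 376, 416 and 415.5 CPM in naive input (log2 fold change -2.50, SE 0.27, adjusted p 4.3e-05). For both genes the highest injured library was well under the lowest naive one.

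Scd1 and Scd2, the stearoyl-CoA desaturases that make oleate, kept high levels after injury while falling. Scd1 had 504 to 539 CPM in injured input, against 1454 to 2517 CPM in naive input, a fall by 1.91 on the log2 scale. Scd2 had 1452 to 1864 CPM in injured input, against 2764 to 6172 CPM in naive input, a fall by 1.35. They are close paralogs, and the authors' counting could have split reads between them. Fads2, Elovl1 and Elovl5 did not pass, with log2 fold changes of -1.45, -1.26 and -0.59 and adjusted p of 0.102, 0.214 and 0.0797. Elovl5 had 179 to 299 CPM in injured input, against 318 to 371 CPM in naive input, which did not overlap.

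By group of 3 libraries, 25 of the 34 member transcripts had every injured input below every naive input, and 0 the reverse. Over all transcripts tested in input, 21.9% were apart in that direction and 22.5% in the other, 44.3% together. The medians of the log2 fold changes by role were -2.75 for the mevalonate pathway, -2.21 for the sterol steps, -1.95 for regulators and carriers, -0.91 for acetyl-CoA, NADPH and chain synthesis, and -1.45 for desaturases and elongases. A transcript was in the input table only if injured inputs 2 and 3 each held 5 or more of its counts, so a member lost after injury would not be listed.

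Of 12 further fatty acid genes, none of them a member, 7 fell and 2 rose in input. Thrsp, a lipogenic factor (log2 fold change -4.40), the elongases Elovl7 (-3.05) and Elovl4 (-2.72), and Acsl1, an acyl-CoA synthetase (-2.47), fell most. Hacd4, a dehydratase of chain elongation (1.62), and Acsl5, another acyl-CoA synthetase (1.48), rose.

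Genes for sterol uptake, storage and efflux went mostly the other way, with 6 of 10 rising and 1 falling. Soat1, which esterifies cholesterol for storage, had 536 ± 48.2 CPM in injured input, against 40.0 ± 6.80 CPM in naive input (log2 fold change 3.74). The efflux transporter Abca1 had 998 ± 23.5 CPM in injured input, against 93.3 ± 20.4 CPM in naive input (3.42), and its partner Abcg1 rose by 2.66 on the log2 scale. The gene that fell was Cyp27a1, a sterol hydroxylase, at -2.75. Of 14 genes of myelin sphingolipids, 3 rose and 4 fell, among them Ugt8a, which makes galactocerebroside (-3.71), and Ugcg, which makes glucosylceramide (2.26). Of 4 triglyceride genes, Dgat2, an acyltransferase of triglyceride synthesis, fell (-4.26) and 0 rose.

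Marker genes of the cells that make these lipids moved with them in input. Of 6 measured adipocyte markers, 6 fell, and their sum was 429 to 526 CPM in injured input, against 3441 to 4046 CPM in naive input. Adipoq, which fat cells make, had 4.60 to 17.6 CPM in injured input, against 161 to 345 CPM in naive input, and was at 0 in no input. Of 13 myelinating Schwann cell markers, 12 fell and 1, the listed Mbp transcript, rose (50.2 ± 4.24 CPM in injured input, against 25.4 ± 3.70 CPM in naive input, SD, n = 3 each). Of 13 macrophage markers 10 rose, and their sum was 8088 to 10800 CPM in injured input, against 1091 to 1876 CPM in naive input. Of 5 muscle markers 4 fell, and of 4 red blood cell markers 4 fell. The part of these cells in the members' fall was not tested.

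The promoters of the members that passed both in input and in a nucleolin comparison below are printed here, because SREBP acts through short elements near the start site. These were 8 genes, of which 6 had a window in RefSeq on the GRCm38.p6 build, from 250 bases before to 50 bases after the annotated start. In each line, 5′ to 3′ on the gene's own strand, capitals mark the sterol regulatory element TCACNCCAC and the inverted CCAAT box ATTGG, on either strand. The windows lie at chr13:119690101-119690400 on the plus strand (Hmgcs1), chr5:28071162-28071461 on the plus strand (Insig1), chr9:42264251-42264550 on the minus strand (Sc5d), chr1:169969156-169969455 on the minus strand (Hsd17b7), chr11:120824498-120824797 on the minus strand (Fasn) and chr3:129532136-129532435 on the plus strand (Elovl6).
Hmgcs1: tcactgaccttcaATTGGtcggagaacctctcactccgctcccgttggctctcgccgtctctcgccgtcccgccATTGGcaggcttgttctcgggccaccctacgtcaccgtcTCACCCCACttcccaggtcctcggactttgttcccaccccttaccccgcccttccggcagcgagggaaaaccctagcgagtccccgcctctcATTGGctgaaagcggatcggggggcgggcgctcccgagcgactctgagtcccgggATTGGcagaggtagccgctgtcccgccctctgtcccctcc
Insig1: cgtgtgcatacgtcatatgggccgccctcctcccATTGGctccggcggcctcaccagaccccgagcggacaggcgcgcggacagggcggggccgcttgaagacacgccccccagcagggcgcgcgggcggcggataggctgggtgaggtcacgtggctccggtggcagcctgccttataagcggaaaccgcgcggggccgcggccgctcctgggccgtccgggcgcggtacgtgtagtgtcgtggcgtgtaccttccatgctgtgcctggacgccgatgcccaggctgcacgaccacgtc
Sc5d: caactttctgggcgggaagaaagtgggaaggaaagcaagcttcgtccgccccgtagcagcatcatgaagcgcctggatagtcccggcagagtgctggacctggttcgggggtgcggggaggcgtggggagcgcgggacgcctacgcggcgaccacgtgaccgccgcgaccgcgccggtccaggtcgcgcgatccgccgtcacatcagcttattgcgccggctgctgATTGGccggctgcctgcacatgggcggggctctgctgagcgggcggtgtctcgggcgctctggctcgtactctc
Hsd17b7: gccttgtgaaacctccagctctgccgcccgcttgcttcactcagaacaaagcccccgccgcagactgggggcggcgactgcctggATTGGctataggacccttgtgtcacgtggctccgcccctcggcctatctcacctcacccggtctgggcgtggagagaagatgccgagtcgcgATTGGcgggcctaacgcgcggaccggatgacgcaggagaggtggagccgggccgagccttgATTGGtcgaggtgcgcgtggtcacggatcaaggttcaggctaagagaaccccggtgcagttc
Fasn: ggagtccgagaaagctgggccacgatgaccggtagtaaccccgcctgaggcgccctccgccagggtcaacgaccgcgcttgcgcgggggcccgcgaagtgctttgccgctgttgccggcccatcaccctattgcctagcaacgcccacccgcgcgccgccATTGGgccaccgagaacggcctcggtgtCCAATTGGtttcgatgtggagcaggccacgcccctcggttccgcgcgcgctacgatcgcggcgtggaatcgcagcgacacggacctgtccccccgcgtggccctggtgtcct
Elovl6: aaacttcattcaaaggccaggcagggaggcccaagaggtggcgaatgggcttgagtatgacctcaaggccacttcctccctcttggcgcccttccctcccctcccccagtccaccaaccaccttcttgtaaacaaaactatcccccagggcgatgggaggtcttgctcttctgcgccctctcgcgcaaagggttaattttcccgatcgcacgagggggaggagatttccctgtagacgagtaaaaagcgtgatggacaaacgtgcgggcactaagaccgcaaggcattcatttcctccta
The Hmgcs1 window held TCACCCCAC at position -137 from the start site, with 4 matches to ATTGG. Hsd17b7 and Fasn held 3 matches to the CCAAT letters each, Insig1 and Sc5d 1 each, and Elovl6 0. Over the 28 members with a window, 19 (67.9%) held ATTGG on either strand, against 37.4% of all 32851 RefSeq windows and 38.2% of the 21262 of protein-coding genes. The GC box GGGCGG was in 23 (82.1%), against 35.7% of all windows and 46.2% of protein-coding ones. All motifs were searched on both strands, with overlaps between them allowed. The E-box CACGTG was in 5 (17.9%), against 7.15% of all windows. TCACNCCAC was in 1 of 28, that of Hmgcs1, against 1.24% of all windows. These are matches of letters and do not show binding.

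In nucleolin IP libraries 30 of 34 tested member transcripts had log2 fold changes below 0 after injury, and few passed the test: 4 fell and 0 rose, where 0.431% of all 11840 transcripts fell and 0.397% rose. The members' median log2 fold change was -1.81 and that of all transcripts was -0.08. Every injured library lay below every naive library for 18 of the 34, against 14% of all transcripts. Hmgcs1, whose promoter window is printed above, had 151, 116 and 342 CPM in injured nucleolin IP and 783, 1474 and 2810 CPM in naive nucleolin IP (log2 fold change -3.06, SE 0.62, adjusted p 0.0416). Hsd17b7 had 10.9, 12.5 and 27.2 CPM in injured nucleolin IP and 67.0, 146 and 164 CPM in naive nucleolin IP (-2.90, SE 0.53, adjusted p 0.0304). In both genes library 3 was the highest of each group. In the same libraries 7 adipocyte markers summed to 1037 to 1857 CPM in injured and 2914 to 16450 CPM in naive nucleolin IP. The median log2 fold change was -1.98 for 13 myelinating Schwann cell markers and 3.06 for 9 macrophage markers. The part of these cells was not tested.

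Elovl6 had 117, 82.0 and 90.3 CPM in injured nucleolin IP and 1166, 858 and 377 CPM in naive nucleolin IP (log2 fold change -3.05, SE 0.55, adjusted p 0.0297). Here naive library 3 was the lowest of its group, and still well above the injured ones. Fads1 had 47.5, 59.5 and 122 CPM in injured nucleolin IP and 360, 606 and 530 CPM in naive nucleolin IP (-2.71, SE 0.53, adjusted p 0.0377). Of these 4, Hsd17b7 still passed without naive library 1 or injured library 3, and Elovl6 without naive library 3. All other calls were lost when any 1 of the 6 libraries was left out (adjusted p 0.0574 to 0.266). With the 6 compared libraries fitted alone 13 members passed, and with DESeq2 15. The shares of all transcripts that passed in these fits are not given here, so the counts do not set the members apart.

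The blocked IP, which is the background of the antibody, also had 30 of 34 below 0. In nucleolin blocked IP 7 fell and 0 rose, where 0.819% of all transcripts fell and 0.735% rose (1.55% together), and the members' median was -1.88 against -0.05 for all. Fdps had 16.2, 9.24 and 17.5 CPM in injured blocked IP and 115.5, 280 and 222 CPM in naive blocked IP (log2 fold change -3.85, SE 0.73, adjusted p 0.0276). Insig1 had 2.39, 17.3 and 14.02 CPM in injured blocked IP and 175, 67.5 and 168 CPM in naive blocked IP (-3.61, SE 0.76, adjusted p 0.0376). Neither overlapped between injured and naive.

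Sc5d had 0.611, 1.62 and 20.4 CPM in injured nucleolin blocked IP and 339, 117 and 318.5 CPM in naive nucleolin blocked IP (log2 fold change -5.10, SE 1.16, adjusted p 0.0474). Its injured libraries differed widely among themselves. Elovl6, at -2.97, Hsd17b7, at -2.94, and Fads1, at -2.58, were the 3 members that passed in both the nucleolin IP and its blocked IP (adjusted p in blocked IP 0.0251, 0.0241 and 0.0344). Their levels in the blocked IP were 41.3 ± 26.5, 22.0 ± 7.12 and 72.2 ± 39.0 CPM in injured and 323 ± 118, 170 ± 22.6 and 431 ± 188 CPM in naive libraries, for Elovl6, Hsd17b7 and Fads1 in that order (SD, n = 3 each).

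Fasn in nucleolin blocked IP was uneven among the naive libraries. It had 23.9, 50.8 and 40.7 CPM in injured blocked IP and 102, 1976 and 333 CPM in naive blocked IP (log2 fold change -4.38, SE 0.89, adjusted p 0.0337). The high library, naive blocked IP 2, also had the highest sum of 7 adipocyte markers, 47670 CPM, against 10980 and 12920 CPM in naive blocked IP 1 and 3, and 2178 to 10140 CPM in injured blocked IP. Adipoq was at 1826 CPM in that library and at 698 and 679 CPM in the other naive ones. The part of fat cells in this value was not tested. Without naive blocked IP 2 no member passed in this comparison, nor without injured blocked IP 1 or 2, nor with the 6 libraries fitted alone. Sc5d, Insig1 and Elovl6 lost their calls without naive blocked IP 1 (adjusted p 0.0856, 0.0681 and 0.0582), and Fasn and Insig1 without injured blocked IP 3 (0.0558 and 0.0543). Under library totals Sc5d and Insig1 did not pass (0.0579 and 0.0554).

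In PTBP1 IP, 34 of 35 tested member transcripts had log2 fold changes below 0 after injury and 0 passed the test. At an unadjusted p under 0.05 there were 13 members, beside 1499 of all 14540 transcripts. Of all 14540 transcripts 0.00688% rose and 0.0% fell, so the test passed almost nothing here. DESeq2 passed 8 members, 7 of them lower, and its share of all transcripts is not given here. The members' median was -2.01 and that of all transcripts -0.14, and 20 of the 35 had every injured library below every naive one, against 13.8% of all. The transcripts of Sqle, Srebf1 and Acly and the less abundant one of Elovl1 reached 5 counts in a whole group only in naive nerve. The way transcripts were listed favoured lower injured values for them, here and in the blocked IP below, so their falls are no evidence of direction. They are still counted in the 34 and the median above, and those of Sqle and Elovl1 also in the 20. A second Msmo1 transcript, too low to test, had 9, 41 and 7 counts in injured and 1, 1 and 12 in naive PTBP1 IP. Fasn had 2.02, 6.96 and 12.7 CPM in injured PTBP1 IP and 189, 227 and 145 CPM in naive PTBP1 IP (log2 fold change -4.69, SE 0.99, adjusted p 0.226). Insig1 had 1.35, 3.21 and 13.4 CPM in injured PTBP1 IP and 122, 103 and 120 CPM in naive PTBP1 IP (-4.25, SE 1.01, adjusted p 0.255). The naive libraries of both genes were close together, and the injured ones several times lower. In the same libraries 10 adipocyte markers summed to 105 to 400 CPM in injured and 4682 to 6166 CPM in naive PTBP1 IP, with up to 4 of them at 0 in a library. The median log2 fold change was -5.34 for these, -2.53 for 13 myelinating Schwann cell markers and 2.22 for 13 macrophage markers. The part of these cells was not tested.

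In PTBP1 blocked IP, 1 of 35 member transcripts fell, where 0.00688% of all transcripts fell and 0.0206% rose (0.0275% together). The members' median was -1.97 and that of all -0.01. That member was Fasn, with 9.68, 5.55 and 7.69 CPM in injured blocked IP and 2517, 752 and 124 CPM in naive blocked IP (log2 fold change -7.21, SE 1.11, adjusted p 0.0423). Scd1 had 1198, 202 and 383 CPM in injured blocked IP and 16800, 3010 and 2139 CPM in naive blocked IP (-3.62, SE 0.86, adjusted p 0.105). Both were highest in naive blocked IP 1, where 10 adipocyte markers summed to 142400 CPM, against 20930 and 3847 CPM in naive blocked IP 2 and 3. The same markers summed to 18300, 469 and 309 CPM in injured blocked IP 1, 2 and 3, with 6 of them at 0 in library 2 and 4 in library 3. The Fasn call was lost when any library other than naive blocked IP 3 was left out (adjusted p 0.0555 to 0.186) and with the 6 libraries fitted alone (0.23). The part of fat cells was not tested.

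**Figure D2:**
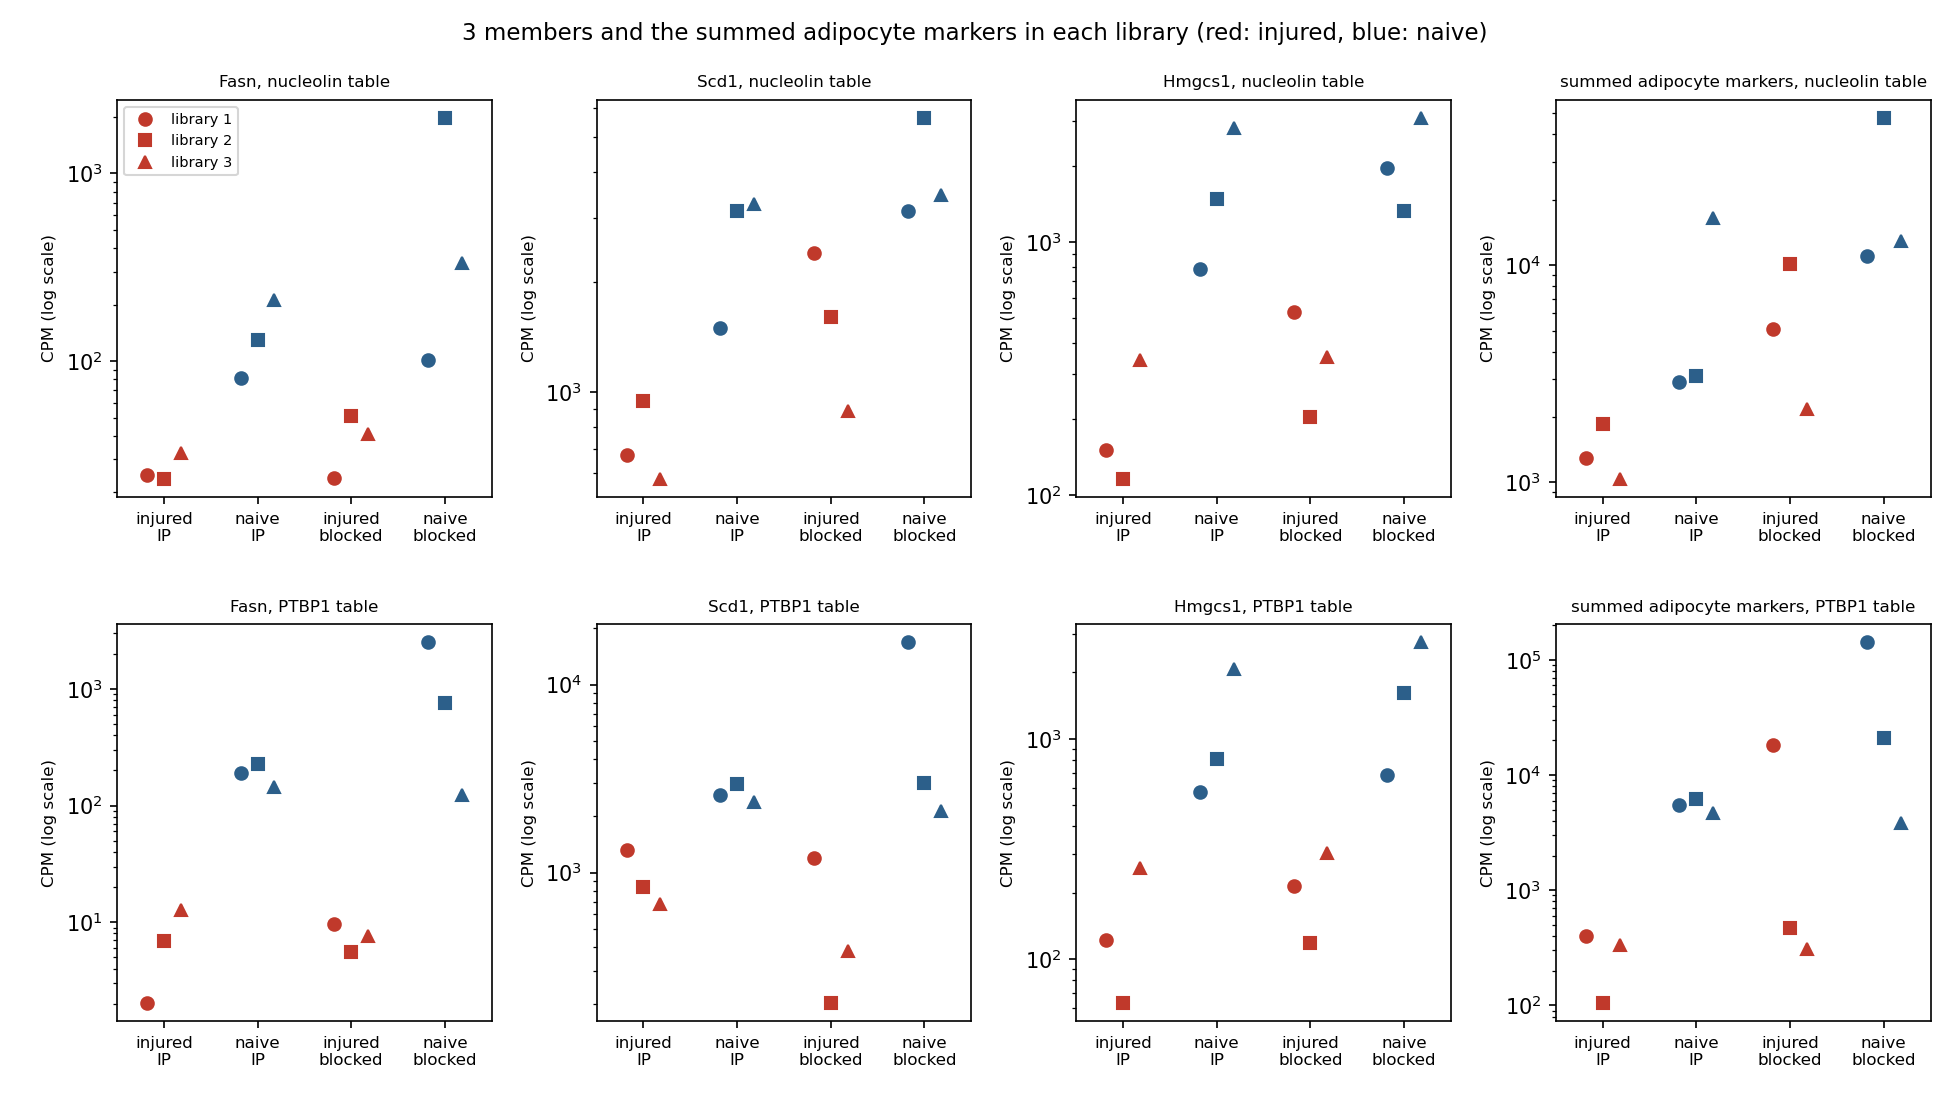
CPM on a log scale of Fasn, Scd1 and Hmgcs1 and of the summed adipocyte markers in each nucleolin library (upper row) and PTBP1 library (lower row), injured in red left of naive in blue, with a symbol for each library number. Naive PTBP1 blocked IP 1 is the highest point for Fasn, Scd1 and the markers (142400 CPM), but the lowest of its group for Hmgcs1.

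Hmgcs1 did not follow that library, and the other sterol members went either way. It had 214.5, 118.5 and 304 CPM in injured PTBP1 blocked IP and 685, 1620 and 2743 CPM in naive PTBP1 blocked IP (log2 fold change -2.99, SE 0.76, adjusted p 0.108). The library with the most adipocyte marker counts was the lowest naive one for Hmgcs1, and library 3 was the highest, as it was in PTBP1 IP. Cyp51, Msmo1, Fdps, Hsd17b7, Lss and Idi1 were also lowest in naive PTBP1 blocked IP 1 among the naive blocked libraries. By contrast, Fdft1 was highest there (287.2, 66.4 and 134.7 CPM in naive blocked IP 1, 2 and 3). So were Acat2 (161.9, 50.9 and 60.7 CPM) and Mvd (45.5, 8.12 and 18.9 CPM).

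Across the 5 kinds of library, 31 member transcripts were tested in all. No library is in more than 1 kind, but the sources used here do not say which libraries came from the same extract, so the 5 may not be separate samples of nerve. The log2 fold change of injured minus naive was below 0 in all 5 for 24 of them, from 24 genes, against 23.5% of the 10125 transcripts tested in all 5. Acly is among the 24, and its falls in PTBP1 IP and blocked IP are no evidence of direction, as given above. Fdps had -3.76 in input, -3.22 in nucleolin IP, -3.85 in nucleolin blocked IP, -3.96 in PTBP1 IP and -4.48 in PTBP1 blocked IP. Elovl5, by contrast, had -0.59, 0.0019, -0.07, -1.33 and -1.20 in that order, and Scap -0.92, -0.31, 0.23, -1.03 and 0.82.

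**Figure D3:**
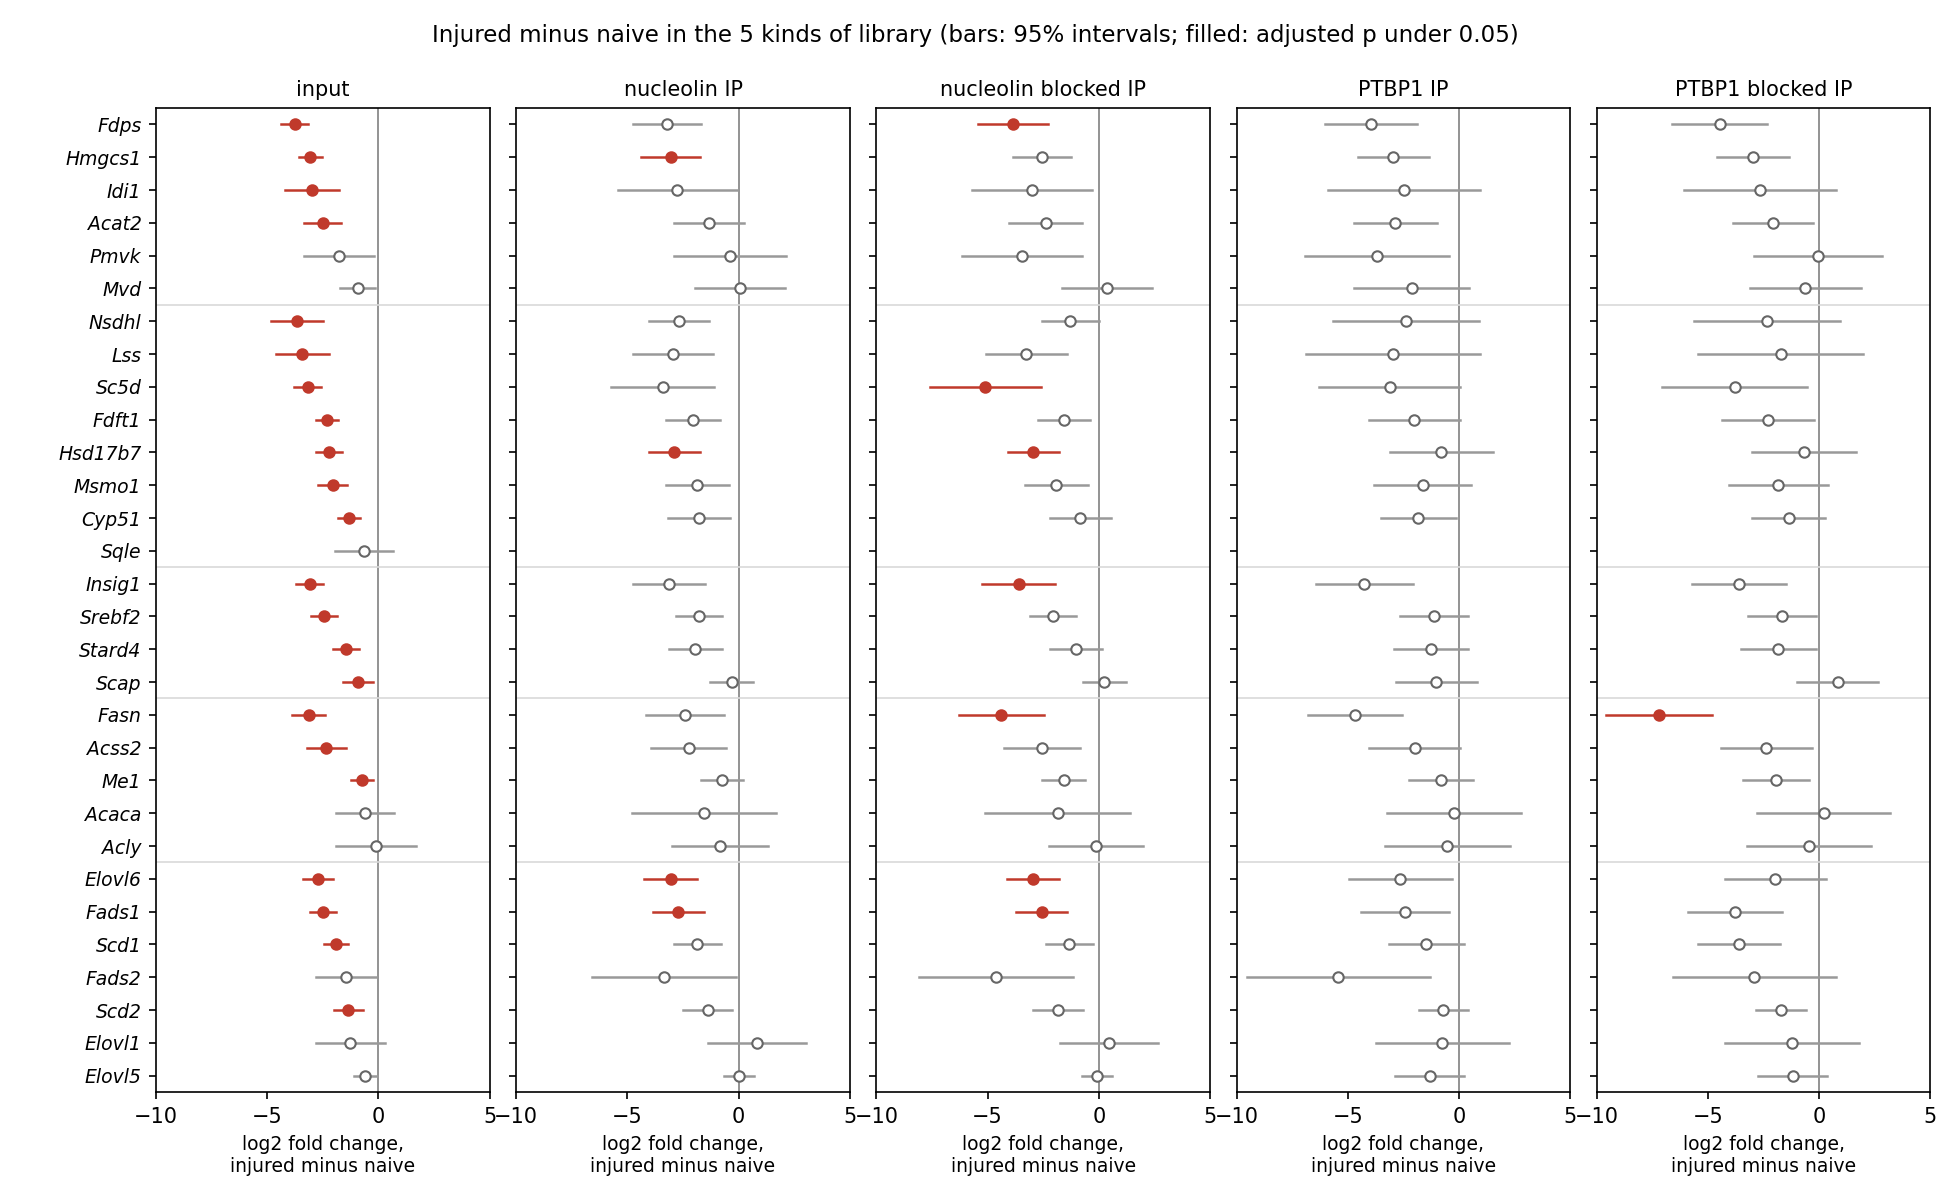
Log2 fold changes of injured minus naive with 95% intervals for the 30 genes tested in input, in the 5 kinds of library, grouped by role; filled red points passed an adjusted p of 0.05. The points lie left of 0 for Fdps, Hmgcs1 and Insig1 in all 5 panels, while those of Scap lie on both sides of it.

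Whether an antibody pulled these RNAs down was asked by setting each IP against its blocked IP. No member passed in either nerve with either antibody, and neither did any other transcript (0.0% of 11840 for nucleolin and of 14540 for PTBP1). At an unadjusted p under 0.05 there were 3 members for nucleolin in injured nerve, 6 in naive nerve, 2 for PTBP1 in injured nerve and 2 in naive nerve, and of all transcripts 769, 1422, 1815 and 1893. The members' medians of IP minus blocked IP were -0.26 in injured and -0.28 in naive nerve for nucleolin, against -0.06 and -0.11 for all transcripts. For PTBP1 they were -0.08 in injured and -0.24 in naive nerve, against 0.02 and 0.05 for all. DESeq2 passed 2 members for nucleolin in naive nerve, 1 higher and 1 lower, and 1, lower, for PTBP1 in naive nerve.

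The groups of IP and blocked IP did not overlap for 7 of 34 member transcripts in injured and 4 of 34 in naive nerve with nucleolin, where 18% and 18.5% of all transcripts were apart. Of the 7 in injured nerve, 5 were higher and 2 lower in the IP. Among the 5 were retained-intron forms of Acss2 and Acaca and an Acaca transcript of 1 exon. In injured nerve these reached 5 counts in all 3 libraries only in the IP. The listing favoured higher IP values for them, so they are no evidence of direction. Of the 4 in naive nerve 2 were lower in the IP, as were 6.28% of all transcripts. The 2 higher ones include the 1-exon Acaca transcript, listed there through the IP alone. The listing acted on all transcripts too. With PTBP1 they were 7 of 35 in injured and 4 of 35 in naive nerve, where 22.9% and 13.9% of all were apart. Those 7 include the 1-exon Acaca transcript, which was listed through injured PTBP1 IP alone. The following 3 members were chosen after their values were seen. Hsd17b7 had 203, 164 and 68.8 CPM in injured PTBP1 IP and 4.04, 49.3 and 47.2 CPM in injured PTBP1 blocked IP. In naive nerve it had 349.5, 228 and 178 CPM in PTBP1 IP and 1.68, 39.4 and 121 CPM in PTBP1 blocked IP. The IP was the higher in both nerves, with log2 fold changes of 2.11 and 2.22 (SE 1.13 each, adjusted p 0.503 and 0.444).

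Elovl6 had 117, 82.0 and 90.3 CPM in injured nucleolin IP and 29.5, 22.7 and 71.7 CPM in injured nucleolin blocked IP (log2 fold change 1.22, SE 0.52, adjusted p 0.665). In naive nerve the 2 groups overlapped, since naive IP 3 was below naive blocked IP 1 (1.31, SE 0.52, adjusted p 0.326). Fasn was lower in naive IP than in naive blocked IP with both antibodies, with log2 fold changes of -2.51 for nucleolin (adjusted p 0.205) and -2.60 for PTBP1 (0.241), with the uneven blocked libraries given above. None of these differences passed the test.

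**Figure D4:**
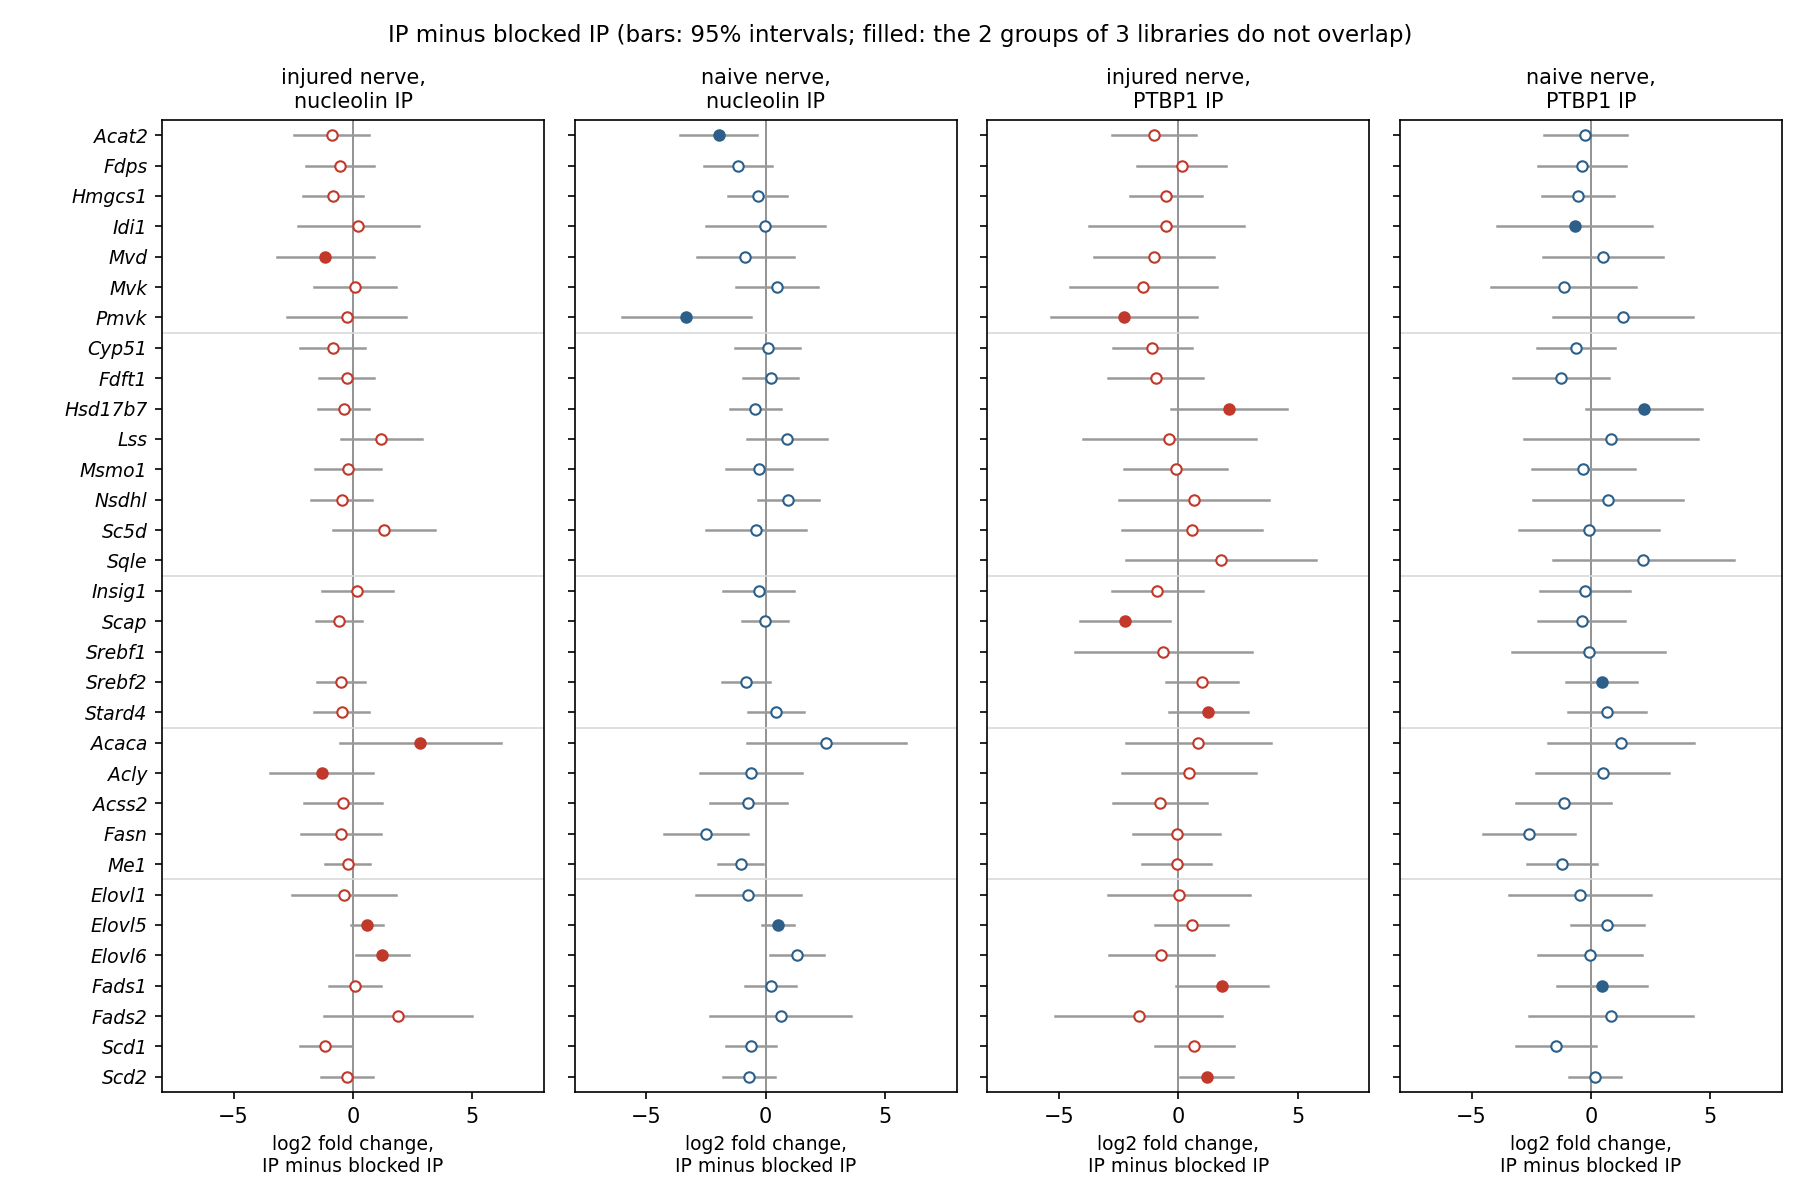
Log2 fold changes of IP minus blocked IP with 95% intervals for the members tested with nucleolin (left pair) or PTBP1 (right pair), injured in red left of naive in blue; filled points mark groups of 3 that do not overlap. The points scatter on both sides of 0, Hsd17b7 is filled at 2.11 and 2.22 in the PTBP1 panels, and no point passed the test.

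The difference between IP and blocked IP was then compared between injured and naive nerve. No member passed for nucleolin or for PTBP1, and neither did any other transcript (0.0%). At an unadjusted p under 0.05 there were 0 members of 34 for nucleolin and 1 of 35 for PTBP1, beside 302 and 1147 of all transcripts. The medians were 0.26 and 0.03 for the members, against 0.04 and -0.08 for all. When the effect of injury in the IP was compared with that in input, 0 of 33 members passed for nucleolin and 0 of 31 for PTBP1, with medians of -0.05 and 0.13 against -0.09 and -0.07 for all transcripts. At an unadjusted p under 0.05 there were 0 and 1, beside 87 of 10891 and 272 of 12393 transcripts. DESeq2 passed 1 member, higher, in each of the PTBP1 differences and 0 in the nucleolin ones. Missing the threshold does not show that the effects were alike: simulated 16-fold changes passed in 50% of cases for nucleolin IP in injured minus naive, and in 2% for PTBP1 IP minus blocked IP in injured nerve.

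Members outside these fits were low or in 1 table. Ebp had 0.181, 1.95 and 2.78 CPM in naive nucleolin IP and 24.6, 5.74 and 1.34 CPM in naive nucleolin blocked IP, with library 1 furthest apart. Tm7sf2 had 0.146 to 2.04 CPM in naive nucleolin IP and 0.502 to 1.18 CPM in naive nucleolin blocked IP. The retained-intron form of Sqle had 5.99 to 11.95 CPM in naive nucleolin IP and 0.161 to 17.2 CPM in naive nucleolin blocked IP. The full-length Srebf1 transcript had 0.864 to 1.03 CPM in injured nucleolin IP and 0 to 1.24 CPM in injured nucleolin blocked IP. Of these 4 transcripts, each group overlapped its blocked IP. In the PTBP1 table a protein-coding transcript of Sqle had 0 counts in all 3 injured blocked IP libraries and 0, 22 and 1 counts in the naive ones, so library 2 held nearly all of them. An Elovl1 transcript had 0 counts in all 3 injured blocked IP libraries and 6, 56 and 16 counts in the naive ones, again most in library 2. An Acaca transcript of 1 exon (chr11:84129700-84133111), not annotated as protein-coding, went the other way in PTBP1 IP. It had 28, 53 and 42 counts in the injured and 0 in all 3 naive libraries. It was the 1 member transcript with a log2 fold change above 0 there. Only in injured PTBP1 IP did it reach 5 counts in a whole group, so its direction was partly set by the listing. In naive PTBP1 blocked IP 2 it had 612 counts.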

How the data were processed

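RNA-seq counts per Ensembl transcript, whole numbers as deposited by the authors, were taken from the tables of the inputs (15006 transcripts), of PTBP1 (15041) and of nucleolin (14181 and 15841, joined on 11862). Fits with input used 10893 and 12399 shared transcripts. The tools CASAVA 1.8.2 and edgeR and the builds mm10 and GRCm38 are named, per the submitters' processing notes. The aligner, counter, annotation release and any use of strand were not given in the sources used. The nucleolin and PTBP1 tables list transcripts with at least 5 counts in all 3 libraries of a group, and the input table those with 5 in injured inputs 2 and 3, as tested on the files. The authors' other per-sample columns (125) were not used. Naive blocked IP library 3 carries another treatment name in the nucleolin and PTBP1 tables. For PTBP1 its counts equalled those under the labelled name in a second table for 10954 of 10954 shared transcripts, and for nucleolin it was assigned by the rest of its name. The replicate numbers were not used to pair the samples in the main fits.

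CPM are counts divided by the effective library size. Counts were tested here with edgeR 4.0.16 (R 4.3.3, limma 3.58.1): quasi-likelihood test, TMM scaling, filterByExpr, two-sided, Benjamini-Hochberg adjustment over all transcripts of a comparison, threshold 0.05. The fits held the 6 inputs, the 12 libraries of an antibody, or those 12 with the inputs. SEs are of the fitted log2 fold changes, and 95% intervals use the test's degrees of freedom. DESeq2 1.42.0, other scalings and filters, counts summed per gene, and leaving out each library were alternatives. The fits were tested on simulated data, with changes set only in transcripts above a minimum mean CPM. In input, 82% of simulated 4-fold changes passed. Annotation was GENCODE (release M21) on GRCm38, which held 19974 of 20423 transcripts. Named in full were, per role, the 2 members that passed with the largest change in input and any that passed with an antibody, and up to 4 per further list. A gene with several transcripts was represented by its most abundant one. Some results of the further lists are not reported here. The members and lists were chosen with earlier results of these data known.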

Additional observations from a re-analysis of the deposited data

How the results depend on the processing

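In input, 20 to 24 member transcripts passed under every alternative run (other size factors, library totals, no filter, DESeq2, counts summed per gene, removal of Yam1, Lars2 and Gm15564, and leaving out each library), and 20 of the 22 passed in all of them; Me1 and Scap did not. Library totals moved the median of all input transcripts to -0.26 and that of the members to -2.05. With DESeq2, 15 members passed in nucleolin IP, 19 in nucleolin blocked IP, 8 in PTBP1 IP and 12 in PTBP1 blocked IP, all injured minus naive; 2 passed in IP minus blocked IP of naive nerve for nucleolin and 1 for PTBP1, and 1 each in the 2 PTBP1 differences between injured and naive (IP minus blocked IP, and IP minus input). With the 6 compared libraries alone, 13 passed in nucleolin IP, 0 in nucleolin blocked IP and 0 in PTBP1 blocked IP. Leaving out 1 library gave 0 to 2 in nucleolin IP, 0 to 7 in nucleolin blocked IP and 0 to 2 in PTBP1 blocked IP. The causes were not tested. The shares of all transcripts that passed under these alternatives are not given here. The counts therefore do not set the members apart from other transcripts. Of the values of single members that passed in the main fits, none changed sign, 381 kept their side of the threshold and 73 did not. Signs of the members that did not pass were not compared in this way.

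The labels number the repeats alike in every group, and same-numbered libraries deviated together in some cases and not in others. In input, numbers 1, 2 and 3 had correlations of 0.155, 0.055 and 0.137 between injured and naive. The highest with another number were 0.01, 0.097 and -0.064. In nucleolin IP the same numbers had 0.28, 0.098 and 0.495, and the highest with another number were 0.066, 0.111 and -0.138. With a replicate block, 23 members passed in input, 9 in nucleolin IP, 14 in nucleolin blocked IP, 3 in PTBP1 blocked IP and 0 in PTBP1 IP. The shares of all transcripts that passed with this block are not given here either.

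Members at a few CPM, such as Acly and Pmvk, rest on few counts. In the simulated data, 34% of 8-fold changes passed in nucleolin IP, against 98% in input. These changes were set only in transcripts above a minimum mean CPM, which Acly and Pmvk did not reach in input. The shares therefore do not describe members so low.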
